A study of Mus musculus with 44 samples.

Results

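The mitochondrial ribosomal protein genes were taken as the genes whose probe sets carry 1 symbol that opens with Mrpl or Mrps and a digit. The array measured 74 of them among 12393 genes with such a probe set, 47 named for the large subunit (Mrpl) and 27 for the small one (Mrps). They were read by 127 probe sets, and where a gene had several the one with the highest mean was used. All 74 lay above the median of the array's probe sets in each of the 43 lymphomas, so none entered through the spleen alone.

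The spleen (1 sample, title number D168) and the 43 lymphomas all came from mice of the genotype Eµ-myc, in which the immunoglobulin heavy-chain enhancer drives a Myc transgene in B lineage cells. The labels list no treatment, age or sex, no mouse without the transgene, and no statement that the spleen was free of lymphoma or that no animal gave more than 1 lymphoma, so p-values measure the spread between these samples. Tissue or pelleted cells had been frozen before RNA extraction, and which array followed which route is not labelled. Levels below are log2 RMA values. Arrays with title numbers up to D117 (36 lymphomas) had medians of 6.21 to 6.45 and those above D117 (7 lymphomas and the spleen) medians of 6.85 to 7.01, so every comparison was made within these title ranges. B cell markers lay above the median of their title range for 7 to 9 of 9 genes in each lymphoma and for 8 of 9 in the spleen.

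Mitochondria translate the few respiratory chain subunits that their own DNA encodes on a ribosome of their own. Its ribosomal RNAs come from mitochondrial DNA, while all of its proteins are encoded in the nucleus, made in the cytosol and imported. Some of these proteins have counterparts in bacterial ribosomes and others are found only in mitochondria. MYC is a transcription factor that promotes cell growth, and genes of ribosome assembly and mitochondrial biogenesis are among those it is known to act on. It binds DNA at E-boxes, of which CACGTG is the canonical form. Promoters of nuclear mitochondrial genes often hold sites for the factors NRF1, GABPA and other ETS proteins (CCGGAAG) and YY1 (AAGATGGC).

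RefSeq promoter windows, from 250 bases before to 50 bases after an annotated start on GRCm38.p6, were found for 65 of the 74 genes, and these 4 letter strings were searched on both strands. CACGTG stood in the windows of 5 of the 65 genes (7.69%), against 8.09% of all 27025 genes with a window and 11.98% of those tested here. The 5 were Mrpl2, Mrpl37, Mrps18c, Mrpl20 and Mrpl36, and 0 of the 9 genes with a window among the 10 with the highest slopes on Myc, given below, held it, Mrps35 having no window. CCGGAAG stood in 24 genes (36.9%), against 9.93% of the 27025 genes and 20.7% of those tested. AAGATGGC stood in 11 (16.9%), against 3.19% and 5.49%, and the palindromic NRF1 string, whose letters are the capitals in the window of Mrpl9 below, in 3 (4.62%), against 1.07% and 2.30%. The strings CCGGAAG and AAGATGGC can overlap by 3 letters, and 0 of the members held them joined in that way. A match describes the letters in this window and shows no binding. Of the 35 members with a window that were higher where Myc was higher, 12 held CCGGAAG, 7 AAGATGGC and 4 CACGTG. Of the other 30, 12 held CCGGAAG, 4 AAGATGGC and 1 CACGTG.

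A window for each of the 4 strings is shown with the match in capitals, chosen after the slopes were seen to span the highest and lowest slopes on Myc. Mrps18a (chr17:46110754-46111053, + strand) had the fourth highest slope and holds CCGGAAG at -26 and AAGATGGC at 12 relative to the annotated start.
Mrps18a: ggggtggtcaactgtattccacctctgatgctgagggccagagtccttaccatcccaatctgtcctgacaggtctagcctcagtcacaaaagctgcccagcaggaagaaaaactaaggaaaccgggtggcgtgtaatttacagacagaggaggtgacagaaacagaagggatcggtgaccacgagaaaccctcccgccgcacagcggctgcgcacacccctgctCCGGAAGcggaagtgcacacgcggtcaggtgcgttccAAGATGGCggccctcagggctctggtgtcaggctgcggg
Mrpl9 (chr3:94443086-94443385, + strand), with the second highest slope, holds the NRF1 string.
Mrpl9: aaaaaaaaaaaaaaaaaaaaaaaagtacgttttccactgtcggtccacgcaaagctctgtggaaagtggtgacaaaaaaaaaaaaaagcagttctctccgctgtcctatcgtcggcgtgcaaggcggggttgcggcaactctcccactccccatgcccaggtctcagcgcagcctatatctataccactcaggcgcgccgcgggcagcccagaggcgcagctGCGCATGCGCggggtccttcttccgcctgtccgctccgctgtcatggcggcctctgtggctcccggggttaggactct
Mrpl2 (chr17:46645971-46646270, + strand) had the highest slope of the 5 genes with the E-box string, which lies at -131.
Mrpl2: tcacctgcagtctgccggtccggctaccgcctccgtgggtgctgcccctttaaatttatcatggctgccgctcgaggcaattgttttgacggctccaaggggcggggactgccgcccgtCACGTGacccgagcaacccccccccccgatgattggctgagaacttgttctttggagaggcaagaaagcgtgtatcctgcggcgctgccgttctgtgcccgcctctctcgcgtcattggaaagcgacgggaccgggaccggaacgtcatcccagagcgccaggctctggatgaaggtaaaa
Mrps7 (chr11:115603890-115604189, + strand) had the lowest slope and holds AAGATGGC at 19.
Mrps7: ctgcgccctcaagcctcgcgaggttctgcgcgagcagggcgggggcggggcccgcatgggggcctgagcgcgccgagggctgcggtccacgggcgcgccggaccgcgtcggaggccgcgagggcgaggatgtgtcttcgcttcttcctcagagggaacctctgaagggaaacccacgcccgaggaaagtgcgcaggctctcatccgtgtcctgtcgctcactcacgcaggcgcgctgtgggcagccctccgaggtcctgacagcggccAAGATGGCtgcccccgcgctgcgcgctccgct

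The first question was how these genes moved with Myc among the lymphomas. Mitochondrial ribosomal protein genes were mostly higher in lymphomas with more Myc mRNA. Slopes lay above 0 for 66 of 74, against 4872 of the 8720 genes tested. The mean of the 74 genes stood at 9.08, 9.64 and 9.96 (lowest, median and highest) in the 36 lymphomas up to D117 and at 10.13, 10.43 and 10.53 in the 7 above. Myc itself was at 9.15, 10.54 and 11.44 and at 9.90, 11.22 and 11.78 in the same lymphomas. The array does not tell transgenic from endogenous Myc mRNA. Centred within the title ranges, the mean of the members ran from -0.52 in D59 to 0.36 in D71, an SD of 0.177 (n = 43). In D59 1 of the 74 genes lay above its title range mean, and in D71 70 did. These counts were not set against those of all genes.

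Across the 43 lymphomas the mean of the members and Myc had a Pearson r of 0.589 and a Spearman rho of 0.557, given as a description. It was 0.551 in the 36 lymphomas up to D117 and 0.871 in the 7 above. Without D88 and D163, which lay farthest from the median of Myc, it was 0.497. Lymphomas with little Myc did not all have low means. D117, with the third lowest Myc (-1.18 from its range mean), had a members' mean at 0.00, while D88 (Myc -1.31) was at -0.32 and D163 (Myc -1.25) at -0.26.

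**Figure D1:**
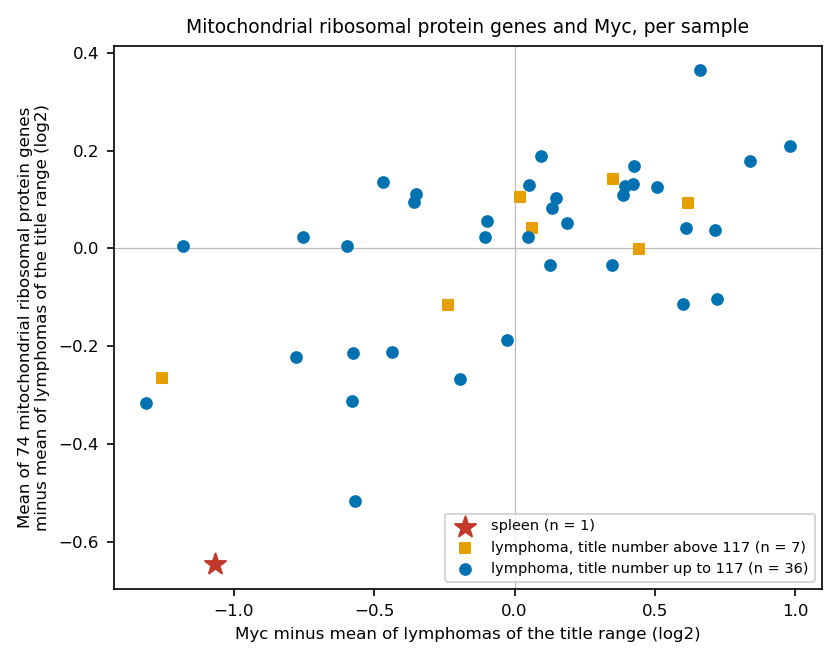
Mean of the 74 mitochondrial ribosomal protein genes (vertical axis) against Myc (horizontal axis), both as log2 values minus the mean of the lymphomas of the title range. The star is the spleen at -0.65 and -1.07, squares are the 7 lymphomas above D117 and circles the 36 up to D117, among which D59 is lowest at -0.52.

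Gene by gene, limma called 40 of the 74 higher with more Myc (54.1%, background 26.4% of all genes tested) and 2 lower (background 16.9%) at an adjusted p under 0.05, and 32 did not pass. The median slope was 0.16 log2 units per log2 unit of Myc, against 0.03 over all genes tested. Over all genes 2301 were higher and 1474 lower, or 3537 and 1140 with equal column medians, where 61 and 0 of the members were. That median corresponds to 1.12-fold for each doubling of Myc, and the steepest slope to 1.44-fold. Genes named for the large and for the small subunit both took part, with 22 higher and 1 lower of 47 Mrpl genes and 18 higher and 1 lower of 27 Mrps genes. Of 46 genes of families with a bacterial member 27 were higher and 2 lower, and of 27 found only in mitochondria 13 were higher and 0 lower, while Mrps36, set apart because its product is now ascribed to the oxoglutarate dehydrogenase complex, did not pass. The difference between these classes was not tested. The test of a slope that differs between the title ranges called 0 of the 74 genes (limma interaction term, with 1 at an unadjusted p under 0.05) and 14 of all genes tested, with 7 lymphomas in the smaller range.

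**Figure D2:**
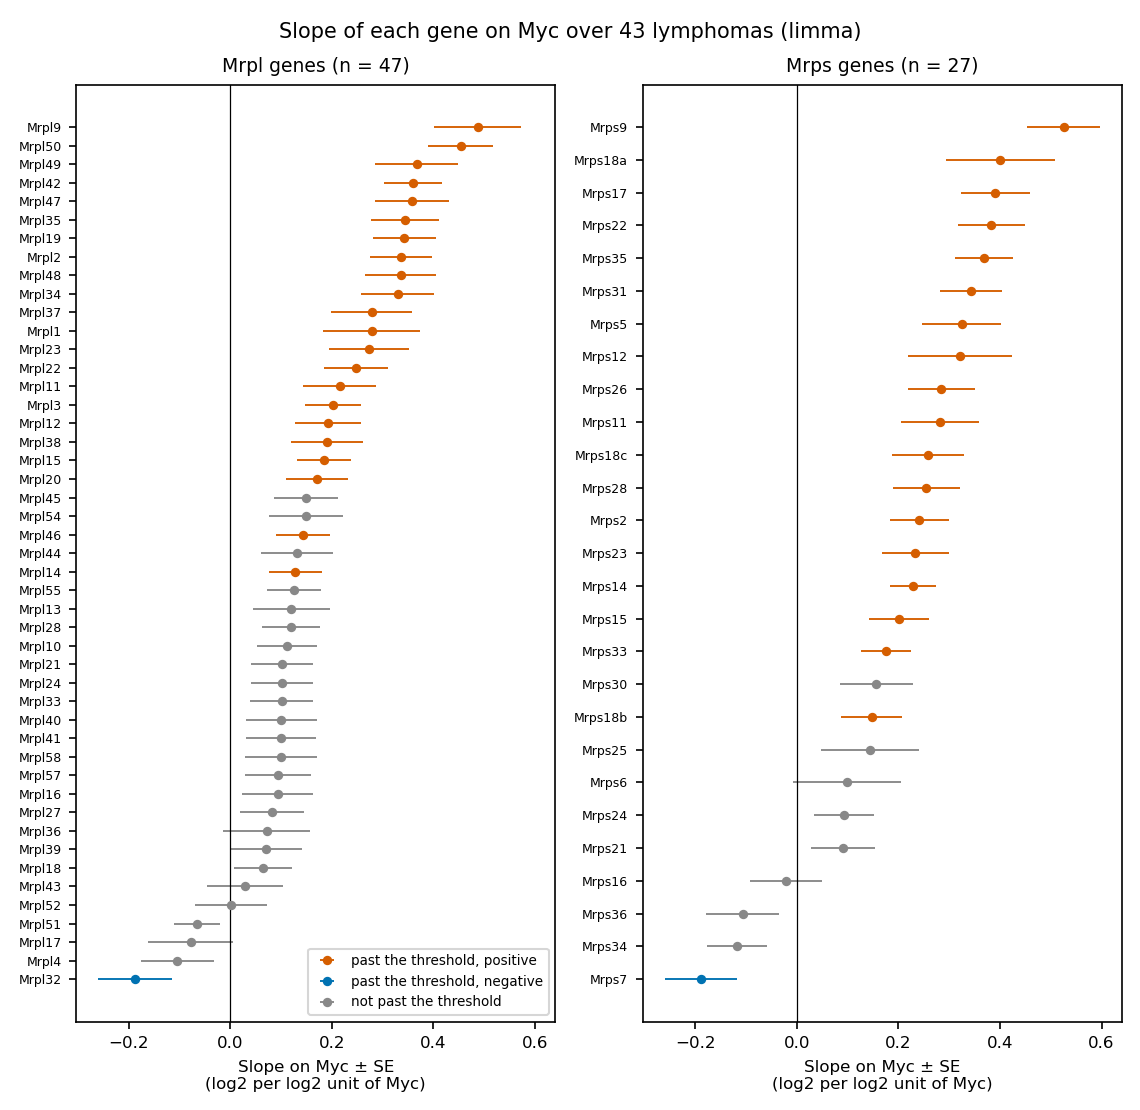
Slope on Myc of each of the 47 Mrpl genes (left) and 27 Mrps genes (right), in log2 units per log2 unit of Myc, with bars for ± SE over 43 lymphomas. Orange marks 40 genes past the threshold with a positive slope, blue the 2 with a negative slope (Mrpl32 and Mrps7, whose sign turned without the title range in the fit) and grey the 32 that did not pass.

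Of the genes named for the small subunit, Mrps9, the counterpart of bacterial S9 whose tail reaches the transfer RNA in the P site, had the steepest slope. Its levels were 8.41, 9.44 and 10.17 (lowest, median, highest) in the 36 lymphomas up to D117 and 9.03, 10.11 and 10.72 in the 7 above. The lowest of each range were D88 and D163, the lymphomas with the least Myc in their ranges, and the highest above D117 was D151, the one with the most Myc there. Its slope was 0.53 ± 0.07 (SE; limma adjusted p = 5.5e-07). Other probe sets of Mrps9 had slopes of 0.59, 0.29 and 0.19. Their mean levels were 8.03, 9.01 and 6.70, against 9.46 for the one used. Mrps17, the counterpart of bacterial S17, spanned 9.16, 9.84 and 10.81 up to D117, from D59 to D71, with a slope of 0.39 ± 0.07 (limma adjusted p = 1.56e-05). Mrps22, a mitochondria-specific protein whose human gene is mutated in a mitochondrial disease of infancy, spanned 8.61, 9.49 and 9.93, again lowest in D88, and its slope was 0.38 ± 0.07. Mrps35, also mitochondria-specific, spanned 8.64, 9.32 and 9.79 with a slope of 0.37 ± 0.06. Mrps18a spanned 8.53, 9.82 and 10.46 and had the widest SE of these genes, with a slope of 0.40 ± 0.11 (limma adjusted p = 0.00247). It is a paralogue of bacterial S18 and, despite its name, sits in the large subunit in structures of the mammalian mitoribosome.

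Of the large subunit genes, Mrpl9, the counterpart of bacterial L9, spanned 8.32, 9.05 and 9.98 up to D117, lowest in D89 and highest in D43, the lymphoma with the most Myc. Above D117 it spanned 9.53, 9.86 and 10.66. Its slope was 0.49 ± 0.09 (SE; limma adjusted p = 1.76e-05). Mrpl50, found only in mitochondria, spanned 8.18, 9.06 and 9.60 up to D117 and 8.78, 9.62 and 10.26 above. It was lowest in D88 and D163 and highest in D43 and D151, which hold the extremes of Myc in their ranges, and its slope was 0.45 ± 0.06 (limma adjusted p = 6.83e-07). The slopes of Mrpl49 (0.37 ± 0.08), Mrpl42 (0.36 ± 0.06) and Mrpl47, the counterpart of bacterial L29 (0.36 ± 0.07), completed the 10 highest. A second probe set of Mrpl49, with a mean level of 8.77 against 8.97 for the one used, had a slope of 0.13. The second probe sets of Mrpl9 and Mrpl50 had slopes of 0.49 and 0.54, and that of Mrpl42, at a mean level of 3.42, had -0.004.

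The other 30 genes that were higher had slopes of 0.13 to 0.34, and Mrpl2, with the E-box string in its window, spanned 9.14, 9.79 and 10.33 up to D117, from D88 to D71, with 0.34 ± 0.06 (limma adjusted p = 2.76e-05). Some of these genes have a known place on the particle. Mrpl12, the stalk protein that also binds the mitochondrial RNA polymerase, had a slope of 0.19 ± 0.07 (limma adjusted p = 0.0154), and Mrpl11 at the base of the stalk 0.22 ± 0.07. Mrps12, the counterpart of the decoding-centre protein S12, spanned 8.22, 9.19 and 10.39 up to D117, from D84 to D63, with a slope of 0.32 ± 0.10 (limma adjusted p = 0.0106). Mrpl58, a hydrolase that releases stalled nascent chains, and Mrpl44, which has an RNase III-like fold, did not pass.

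At the other end stood 6 genes with the lowest slopes, of which 2 were lower with more Myc. Mrps7, the counterpart of the S7 protein around which the head of the bacterial small subunit assembles, was at 8.82, 9.43 and 10.15 up to D117 and 9.89, 10.32 and 10.88 above. Its highest levels were in D117 and D163, both poor in Myc, and its slope was -0.19 ± 0.07 (SE; limma adjusted p = 0.0277), which turned to 0.05 without the title range in the fit. Mrpl32, a large subunit protein that a mitochondrial protease trims before assembly, was at 9.02, 10.03 and 10.34 up to D117. Its slope was -0.19 ± 0.07 (limma adjusted p = 0.0334) and turned to 0.02 without the title range. Neither passed in the 36 lymphomas up to D117 alone (limma adjusted p = 0.119 for Mrps7 and 0.116 for Mrpl32) or with equal column medians, where both slopes were -0.08, and without D117 or without D163 the count of lower genes was 0. The slopes of Mrps34 (-0.12 ± 0.06), Mrps36 (-0.11 ± 0.07), Mrpl4 (-0.10 ± 0.07) and Mrpl17 (-0.08 ± 0.08) did not pass.

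**Figure D3:**
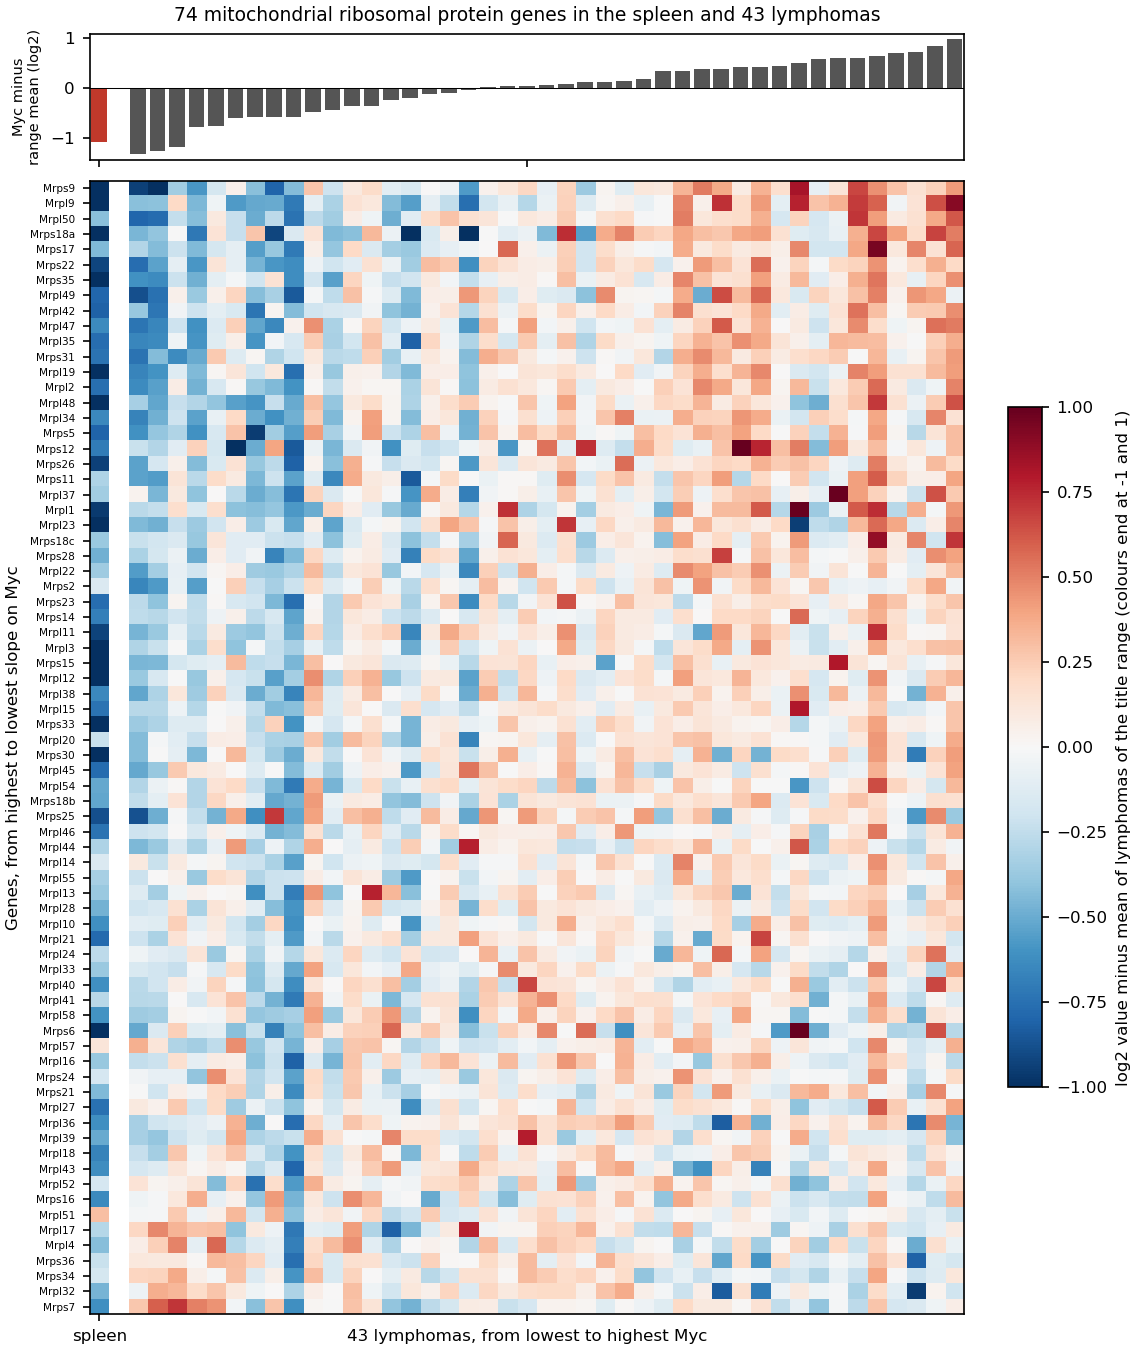
Level of each of the 74 genes (rows, from highest to lowest slope on Myc) in the spleen (left column) and the 43 lymphomas (from lowest to highest Myc), as log2 values minus the mean of the lymphomas of the title range. Bars above give Myc on the same scale, with the spleen at -1.07. The upper rows pass from blue to red with Myc, and the bottom rows, Mrpl32 and Mrps7 among them, do not, which follows from sorting the rows by slope.

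Signals of other cells moved with Myc as well. The mean of 13 T cell markers correlated with Myc at r = -0.673 and with the members' mean at -0.497, and the mean of 16 macrophage markers at -0.473 and -0.711, while 9 B cell markers gave 0.094 and 0.245. Stroma and endothelium markers (14 genes) gave -0.017 with Myc and -0.575 with the members' mean, and erythroid markers (10 genes) -0.199 and -0.469. Neutrophil markers (13 genes) gave -0.266 and 0.018, and megakaryocyte markers (6 genes) -0.236 and -0.336. The erythroid and megakaryocyte means lay below the median of the title range in all lymphomas, so their correlations rest on low values. In the regression on Myc 12 of 13 T cell and 10 of 16 macrophage markers were lower. T cell means ran from 5.28 to 8.69 up to D117 and from 6.23 to 8.95 above, and macrophage means from 5.32 to 9.82 and from 6.24 to 9.80. D59, where the members were lowest, stood 3.12 above its range mean in the macrophage score, and D71, where they were highest, 0.79 below (-0.79). With both scores held fixed 5 of the 74 genes were called higher (background 3.88%), Mrpl9 (slope 0.42, limma adjusted p = 0.0338), Mrps9 (0.32, 0.0273), Mrpl50 (0.32, 0.0196), Mrpl42 (0.27, 0.0325) and Mrps12, and 0 lower (background 2.55%), and r of the mean with Myc was 0.280. The slope of Mrps18a was 0.06 then (limma adjusted p = 0.860). In bulk RNA, fewer cells of a type and less RNA per cell cannot be told apart.

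Mitotic genes also moved with the members. A score of 21 G2/M genes correlated with the members' mean at 0.661 and with Myc at 0.507. With that score held fixed 18 of the 74 genes were called higher (background 14.4%) and 3 lower (background 11.2%), and r of the mean with Myc was 0.393. Mrps9 (slope 0.44), Mrpl9 (0.41) and Mrpl50 (0.41) still passed. The difference between 3' and 5' control probes, a measure of RNA integrity, correlated with Myc at -0.103.

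The members also varied together. Over 2701 pairs the mean Pearson r across the 43 lymphomas was 0.380, from -0.449 to 0.883, and 93.7% of pairs were positive. The means of the Mrpl and Mrps genes followed each other at r = 0.960. The closest pair joined the subunits, Mrpl19, the counterpart of bacterial L19, with Mrps35. Mrpl2, whose bacterial counterpart lies near the peptidyl transferase centre, followed the mean of the other members most closely (r = 0.879), ahead of Mrps22 (0.854), Mrps14 (0.846) and Mrps5 (0.846). Mrpl32 (0.058), Mrpl17 (0.161), Mrps7 (0.186) and Mrpl39 (0.245) followed it least. The pair farthest apart was Mrpl17 and Mrpl39, which is related to a transfer RNA synthetase.

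The 6 genes with the lowest slopes, chosen here by their values, had a mean r of 0.467 among themselves and of -0.040 with the 10 with the highest slopes, which had 0.677 among themselves. The mean of the 6 correlated with the mean of 47 cytosolic ribosomal protein genes at 0.547 and with that of 29 nucleolar ribosome assembly genes at -0.006. For the 10 these were 0.141 and 0.878. Respiratory chain genes gave 0.350 for the 6 and 0.741 for the 10.

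How far the members varied was modest. The median SD over the 43 lymphomas was 0.276, against 0.338 over all genes kept. Mrps18a (0.463), Mrps12 (0.426), Mrpl9 (0.422) and Mrps9 (0.402) had the highest SDs. Mrpl51 (0.164), Mrpl14 (0.200), Mrps33 (0.202) and Mrpl55 (0.203) had the lowest.

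Other genes of the same pathway gave a wider picture, with 26.4% of all genes higher and 16.9% lower as the background. The nuclear genes for handling mitochondrial DNA and its transcripts were higher with more Myc for 12 of 15, with the largest test statistics for Trmt10c, a subunit of mitochondrial RNase P (0.36 ± 0.06, SE), Elac2, which trims transfer RNA ends (0.35 ± 0.06), and Tfam, which packs mitochondrial DNA (0.35 ± 0.06). Mitochondrial aminoacyl-tRNA synthetase genes were higher for 9 of 11, with Iars2 (0.56 ± 0.08), the amidotransferase subunit gene Gatc (0.53 ± 0.07) and Pars2 (0.40 ± 0.07). Factors that assemble the mitoribosome were higher for 9 of 16, among them the GTPase gene Noa1 (0.50 ± 0.08), Ngrn (0.39 ± 0.06) and the pseudouridine synthase gene Rpusd4 (0.24 ± 0.04). Translation factors were higher for 3 of 6, including the elongation factor Gfm1 (0.44 ± 0.08), and 2 of 4 mitoribosomal proteins with other symbols were, Dap3 (0.33 ± 0.07) and Ptcd3 (0.23 ± 0.07). Protein import genes were higher for 12 of 20, such as Timm8a1 (0.45 ± 0.07). Genes lower with more Myc numbered 0 in each of these lists.

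The machinery that the mitoribosome serves and its cytosolic counterpart gave smaller slopes. These genes also varied less, which leaves less room for a steep slope. Median SDs were 0.215 for the respiratory chain and 0.095 for cytosolic ribosomal proteins, against 0.276 for the members. Pearson r of the list means with Myc was 0.372 and 0.099, against 0.589 for the members. Of 80 respiratory chain and ATP synthase genes 25 were higher (31.25%, near the 26.4% of all genes) and 0 lower, with a median slope of 0.07, and of 47 cytosolic ribosomal protein genes 8 were higher and 2 lower, with a median of 0.02. Nucleolar genes that assemble the cytosolic ribosome were higher for 26 of 29, with a median of 0.33. Genes for regulators of nuclear mitochondrial genes were split, with Gabpa (0.23 ± 0.06) and the coactivator gene Pprc1 (0.23 ± 0.07) higher and Esrra (-0.21 ± 0.06; limma adjusted p = 0.00253) lower of 7. Across the lymphomas the mean of the members correlated with the list means at 0.959 for import, 0.896 for the respiratory chain, 0.841 for nucleolar assembly and 0.373 for cytosolic ribosomal proteins.

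**Figure D4:**
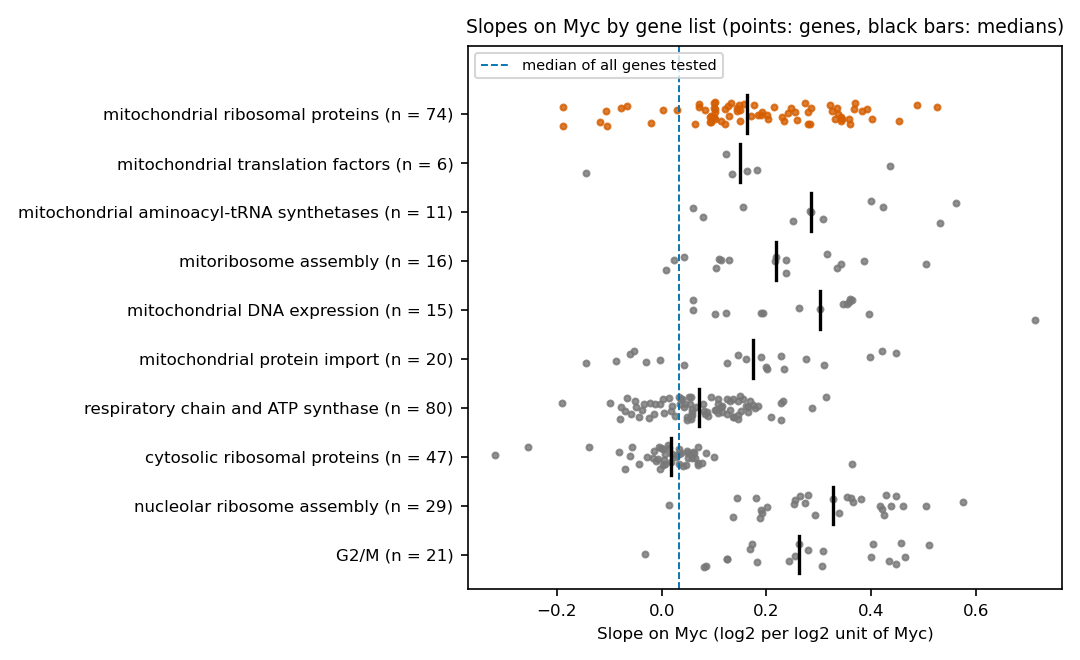
Slopes on Myc (horizontal axis, log2 units per log2 unit of Myc) for the genes of each list over 43 lymphomas, with a black bar at each list's median and a dashed line at the median of all genes tested (0.03). The members' median is 0.16, between those of the nucleolar list (0.33) and the cytosolic ribosomal proteins (0.02). The cytosolic list had a median SD of 0.095 over the lymphomas, against 0.276 for the members.

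The 10 genes outside the family whose profiles were most like the members' mean had Pearson r of 0.859 to 0.895 over 43 lymphomas. They were Exosc7 of the RNA exosome (0.895), Park7 (0.890), Tbl3 (0.885), the mitochondrial protease gene Lonp1 (0.884), the DNA polymerase delta subunit gene Pold2 (0.869), the import gene Timm50 (0.866), Aimp2 (0.865), Ntmt1 (0.863), the splicing gene Snrpc (0.859) and Zmynd19 (0.859). Myc ranked 948 of 8647 genes outside the family by this measure.

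The second comparison set the spleen against the lymphomas. The members' mean was 9.75 in the spleen, below all 7 lymphomas of its title range (10.13 to 10.53), and their median difference was -0.63, against -0.16 over all genes, but it was 0.05, against 0.41 over all genes, without the title range in the fit. With equal column medians these were -0.81 and -0.34. The spleen was thus 0.648-fold of the lymphomas at the members' median within the title range. Limma called 20 of the 74 lower in the spleen (27.03%, background 5.79% of 8721 genes) and 0 higher (background 7.6%), and 41 of the 74 passed an unadjusted p of 0.05. Over all genes 663 were higher and 505 lower, or 562 and 787 with equal column medians. The spleen lay below all 7 lymphomas of its range in 56 genes (background 31.0%), and below all 43 after centring in 31 (background 13.6%). With 1 spleen the test takes its spread from the lymphomas. Of the 20 genes 0 passed without the title range in the fit, and 10 did against the 7 lymphomas of the range alone (background 2.69%), where Mrps35 (limma adjusted p = 0.0603) and Mrps9 (0.0882) did not.

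Mrps6, the counterpart of bacterial S6, was at 7.10 in the spleen, against 8.78, 8.82, 8.72, 9.35, 8.30, 8.64 and 9.44 in lymphomas D135, D151, D163, D121, D133, D143 and D161. The spleen lay below all 7, and the difference from their mean was -1.76 ± 0.42 (SE; limma adjusted p = 0.00293). Mrps9 was at 8.44 in the spleen, against 10.40, 10.72, 9.03, 9.98, 10.23, 10.11 and 9.95 in the same lymphomas, a difference of -1.62 ± 0.42 (limma adjusted p = 0.00677). The nearest lymphoma was D163, which of the 7 had the least Myc and also the highest macrophage and T cell scores (2.58 and 1.58 above the range mean). These cannot be told apart here. Other probe sets of Mrps9 gave spleen differences of -1.81, -1.03 and -0.32. Mrpl19 was at 9.08 in the spleen, against 9.89 to 10.99 in the 7 lymphomas, a difference of -1.41 ± 0.32.

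Mrpl23, whose bacterial counterpart lines the exit of the nascent chain tunnel, was at 10.004 in the spleen, against 10.88 to 11.68 in the 7 lymphomas (-1.35 ± 0.35, SE). Mrps35 was at 8.76 in the spleen, against 9.48 to 10.60 (-1.34 ± 0.31). The stalk gene Mrpl12 was at 10.71 in the spleen, against 12.30, 11.76, 11.73, 11.84, 11.93, 12.14 and 11.51 in the lymphomas in the order given for Mrps6 (-1.18 ± 0.28, limma adjusted p = 0.00275). All 6 lay below the 7 lymphomas of the range (background 31.0% of all genes), which follows in part from choosing the largest called differences. Of the 20 genes lower in the spleen, 14 were among the 40 of 74 higher with more Myc, in comparisons that share the same lymphomas, and the other 6 were Mrps6, Mrps30, Mrpl18, Mrpl21, Mrpl27 and Mrpl45. The other 14 differences past the threshold ran from -1.16 (Mrpl3, the counterpart of bacterial L3) to -0.67 (Mrpl18). Mrps33 had the smallest adjusted p, at 9.66 in the spleen, against 10.47 to 10.98 in the 7 lymphomas (-1.12 ± 0.22, limma adjusted p = 0.000245). Mrpl51 (0.30 ± 0.18) and Mrpl57 (0.12 ± 0.26) had positive differences that did not pass.

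**Figure D5:**
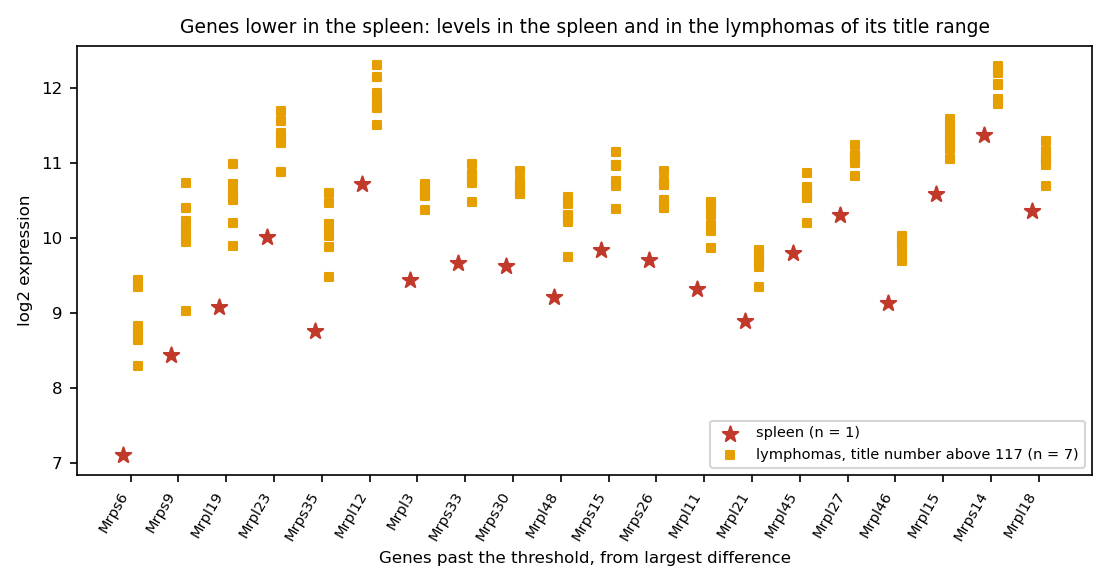
log2 levels of the 20 genes lower in the spleen (stars) beside the 7 lymphomas with title numbers above D117 (squares), from the largest difference on the left. The genes were picked as lower in this comparison, so their place below the lymphomas follows in part from the choice. Of all genes, 31.0% lie below all 7. Each star lies below all 7 squares of its gene, by the levels of 1 title range; without the title range in the fit none of the 20 passed, and Mrpl27, Mrpl45 and Mrps14 had differences above 0.

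The mean levels of 4 marker lists of other cells lay above all 7 lymphomas of its range in the spleen. The mean of 10 erythroid markers was 11.92 in the spleen, against 5.13 to 5.57 in the 7 lymphomas, with a median difference of 6.91. Neutrophil markers averaged 11.999 against 5.61 to 9.10 and megakaryocyte markers 9.81 against 5.97 to 6.63. Stroma and endothelium markers averaged 8.88 against 5.70 to 6.52, with a median difference of 2.88. The filter asked for 1 array above the median of the title range, so markers low in all lymphomas could enter through the spleen alone. The erythroid and megakaryocyte means lay below that median in all lymphomas. Macrophage markers averaged 9.67 against 6.24 to 9.80 and T cell markers 6.45 against 6.23 to 8.95, both within the range of the lymphomas. In macrophage markers only D163 lay above the spleen. D163 stood 2.58 above the range mean and the spleen 2.45, while D135, the next lymphoma, stood at 0.08. The median difference of the 16 macrophage markers, spleen minus lymphomas, was 2.26. B cell markers averaged 9.08 in the spleen, against 9.38 to 10.998 in the 7 lymphomas. The part of these cells, and of the lower Myc in the spleen (10.09, against 9.90 to 11.78), in the members' levels was not tested. Among the other lists, with a background of 5.79%, the genes called lower in the spleen were 15 of 29 for nucleolar assembly, 9 of 20 for import and 10 of 47 for cytosolic ribosomal proteins. For the respiratory chain 5 of 80 were lower and 1 higher, a share near the background.

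Genes with several probe sets gave a check of the readings. For 33 genes 53 further probe sets correlated with the one used at a median r of 0.682, from -0.264 to 0.970, and 13 had an r below 0.3. Their slope on Myc had the same sign for 50 of the 53, and for 30 of the 32 whose gene had been called.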

How the data were processed

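Total RNA of 1 spleen and 43 lymphomas was hybridised to 1 Affymetrix mouse array each. Per the submitters' processing notes, the authors made the deposited log2 expression values with RMA in the affy package, with versions not given in the sources used here. The table held 22690 probe sets, of which 64 were controls, 20380 had 1 gene symbol, 691 had several and 1555 had none, and probe sets without exactly 1 symbol were left out. Symbols came from the platform annotation, and 20351 matched an Entrez identifier of GRCm38.p6, of which 0 were renamed. RMA puts all arrays of a run on 1 scale, and the array medians fell on 2 scales by title number, so the title range entered every comparison; whether the arrays had been run separately is not stated. RMA values have no read depth, and the number of arrays limits the precision.

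Genes had to exceed the median of the title range on 1 array or more, which left 8721 of 12393 genes and all 74 members. With limma 3.58.1 in R 4.3.3 (eBayes with an intensity trend, two-sided, Benjamini-Hochberg adjustment over all genes kept, threshold 0.05), each gene was regressed on Myc plus title range over the 43 lymphomas, and the spleen was compared with the lymphomas with title range as a covariate. Scores were means of values centred on the lymphomas of the title range. Descriptions used pandas 2.3.3 and numpy 2.4.6, and array weights statmod 1.5.0. Both fits were tested on simulated data. Whether same-numbered samples pair could not be checked, since no number occurs in both groups.

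The members, gene lists, tests and title range were chosen with earlier results of these data known. Subunits follow the symbols, and origin follows the protein family. Named in detail were the 10 highest and 6 lowest slopes, the 6 lowest called differences in the spleen, the 4 highest and 4 lowest SDs and correlations with the other members, up to 3 genes a list by size of the statistic, and the 10 genes most like the members' mean. The planned rule for promoters, members among the 10 highest slopes with CACGTG, named 0 of the 9 with a window, so the windows shown and the members named for their function or for single lymphomas were chosen after their values were seen. Alternatives concerned the filter, probe set choice, scaling, eBayes settings, ranks of Myc, marker, G2/M and RNA integrity scores as covariates, array weights and samples left out.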

Additional observations from a re-analysis of the deposited data

How the results depend on the processing

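The count of 40 members higher with more Myc became 61 under equal column medians and 62 without the title range, 18 with the G2/M score held fixed, 5 with both the T cell and macrophage scores as covariates and 1 (Mrps9) in the 7 lymphomas above D117 alone. In alternatives added after seeing the data, it was 11 with the T cell score alone held fixed and 22 with the macrophage score alone. Leaving out each lymphoma in turn gave 37 to 44 higher and 0 to 3 lower, with 0 lower without D117 or D163, 1 lower without D35, D46, D75, D88 or D151, and 3 without D59 or D71. Without the title range the slopes of Mrpl32 and Mrps7 turned to 0.0241 and 0.0539. Over all genes 2301 were higher and 1474 lower with Myc, 3537 and 1140 with equal column medians, 4062 and 599 without the title range, and 338 and 222 with T cell and macrophage covariates. Of the 8720 genes tested, 635 were higher with the T cell score alone held fixed and 1363 with the macrophage score alone. With the G2/M score held fixed 1253 were higher, and 17 in the 7 lymphomas above D117 alone. The count of 20 members lower in the spleen was 0 without the title range (5 at an unadjusted p under 0.05), 10 with the 7 lymphomas of its range alone and 34 with array weights. It ran from 15 (without D143) and 16 (without D133) to 25 (without D163) when each lymphoma was left out. The r of the members' mean with Myc was 0.871 in the 7 lymphomas above D117 and 0.280 with both marker covariates, and 0.545 to 0.624 with each lymphoma left out. The mean pairwise r of 0.380 became 0.521 under equal column medians and 0.677 without the title range, and the median SD of 0.276 was 0.412 without it. The cause of these shifts was not tested, and the fit above D117 rests on 7 lymphomas. For the 16 named slopes, 37 values under alternatives lost the threshold, 5 passed it newly and 228 stayed on their side. The filter left all 74 members in, and Myc has 1 probe set, so a mean of its probe sets was not run. No paired analysis was possible because the spleen is 1 sample and shares no number with a lymphoma.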

Other observations

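Some lymphomas had members out of step with Myc, and these were picked after their values were seen. D34 and D35 stood 0.60 and 0.72 above their range mean in Myc, yet 13 and 26 of the 74 genes lay above their range means and the members' means were at -0.11 and -0.10. Their macrophage scores were 0.98 and 1.13 above the range mean. D85, at -0.47 in Myc, had 58 of the 74 genes above their range means and a macrophage score of -0.65. D83, at -0.36 in Myc, had 55 above and a members' mean of 0.10, with a macrophage score of 1.30. The counts of genes above their range means were not set against those of all genes.

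Single genes also left the family in single lymphomas. In D86 the small subunit gene Mrps6 stood 1.43 and the large subunit gene Mrpl1 1.03 above their range means, while Mrpl23 stood at -0.94 and the members' mean at 0.13. In D69 Mrpl37 was at 0.99 and Mrps15 at 0.80, both genes of chromosome 4, while the other members on that chromosome, Mrpl20 and Mrpl50, were at -0.11 and -0.06 and the members' mean at 0.04. Mrps12, the decoding-centre gene, was at 1.15 in D63 and at -1.02 in D84. Each rests on 1 array, and these values were not tested.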
